A study of Homo sapiens with 10 samples.

Results

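The cytosolic heat shock genes are a set of 10 named genes: HSPA6, HSPA1A, HSPA1B, HSPA8, DNAJB1, HSPH1, HSP90AA1, HSPB1, BAG3 and HSPE1. They were found as the non-control spots whose gene name on the array was a member. Of the 10 names, 9 had a spot, with 20 probes on 29 spots, out of 41000 probes and 28090 named genes on the array. HSPA1B had no spot under its own name, and 2 of the 3 HSPA1A probes also carried the HSPA1B transcript in their annotation, so RNA of these near-identical copies could not be told apart. All 20 probes were well above background on all 10 arrays, and none of their spots was saturated or an outlier. HSPA6 was chosen by its strong departure from additivity of the drugs in these arrays, and the others by name. Its values are therefore given as a description, with no test. The label of the set is loose for HSPE1, whose protein, the partner of the HSP60 chaperonin, works in mitochondria.

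The arrays measured total RNA of PC-3 cells, an established human prostate cancer line that grows without androgen, on single-colour Agilent whole-genome chips. The 5 groups, of 2 arrays each, were cells at 0 h without drug, and cells kept for 24 h with DMSO (the solvent of the drugs), with 60 µM luteolin, with 60 µM gefitinib, or with 60 µM of both. Luteolin is a plant flavonoid and gefitinib is an inhibitor of the EGF receptor tyrosine kinase. The question was how the transcripts responded to each drug and to their co-administration. All groups were the same cell line, each pair was labelled as biological replicates without saying whether cultures were separate, and p-values measure only the spread between these arrays.

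The names of the scanner files contradicted the sample labels for the 6 drug-treated arrays. The arrays labelled luteolin were named for gefitinib in the files, those labelled gefitinib were named for both drugs, and those labelled luteolin plus gefitinib were named for luteolin. Groups follow the labels below. The values of each pair of arrays against DMSO are the same under either naming, and only the drug they belong to changes. The arrays lay on 3 slides. Slide 1 held replicate 1 of DMSO and of each drug treatment, slide 2 held replicate 2 of 0 h, DMSO, luteolin and luteolin plus gefitinib, and slide 3 held 0 h replicate 1 and gefitinib replicate 2. The departures from additivity and the comparisons between drugs do change with the naming, and for the members they are given under both namings where the call or the direction changes. A signal is the background-corrected intensity of a spot, and a level is its log2 relative to the 75th percentile of all probes on the same array. That percentile ran from 540 to 1402 and was lowest on the arrays labelled gefitinib and luteolin plus gefitinib (540 to 865). The epithelial keratins KRT8 and KRT18 and the intermediate filament gene VIM were well above background on all 10 arrays, as were KLK3 and TMPRSS2 of the androgen-responsive list. Of the markers of other cell types, PTPRC (blood cells), VWF (endothelium) and DCN (fibroblasts) were well above background on 0 arrays, CDH5 (endothelium) on 1, COL1A2 (fibroblasts) on 2, COL1A1 and COL3A1 (fibroblasts) on 9, and CD14, CD3E (blood cells) and PECAM1 (endothelium) on 10.

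Heat shock proteins are chaperones that hold, refold or hand over unfolded proteins. When proteins misfold, heat shock factor 1 (HSF1) is released from chaperones, forms trimers and binds heat shock elements, which are inverted repeats of the unit GAA in the promoters of chaperone genes. HSPA8 is the constitutive cytosolic HSP70, HSPA1A and HSPA1B are the major inducible forms, and HSPA6 is a strictly inducible form present in human but not in mouse. DNAJB1 is a J-domain cochaperone that delivers substrates to HSP70, HSPH1 and BAG3 exchange its nucleotide, HSP90AA1 is the inducible HSP90, and HSPB1 is a small heat shock protein.

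The promoter sequences of the members were searched for exact words of the element through which this response runs. RefSeq windows of the build GRCh38.p14, from 250 bases before to 50 after each start site, were found for all 10 members, with 13 windows in all, since DNAJB1 has 3 start sites and HSP90AA1 has 2. Each was searched on both strands for the 2-unit words GAANNTTC and TTCNNGAA, and for the 3-unit word GAANNTTCNNGAA, whose other strand reads TTCNNGAANNTTC and which holds both 2-unit words. A 2-unit word lay in the windows of 7 of 10 members, against 13.5% of 35116 human promoter windows of this length. A 3-unit word lay in those of 3 members (HSPA6, HSPA8 and HSP90AA1), against 0.49% of all windows. The 250 bases before the start follow for 6 windows, with the words in capitals. HSPA6, HSPA8 and HSP90AA1 hold the longer word, HSPA1A and DNAJB1 the shorter, and BAG3 neither. They are HSPA6 at chr1:161524290-161524539 (plus strand), HSPA1A at chr6:31815293-31815542 (plus), HSPA8 at chr11:123062137-123062386 (minus), HSP90AA1, second start, at chr14:102087045-102087294 (minus), DNAJB1, second start, at chr19:14518398-14518647 (minus) and BAG3 at chr10:119651130-119651379 (plus).
HSPA6: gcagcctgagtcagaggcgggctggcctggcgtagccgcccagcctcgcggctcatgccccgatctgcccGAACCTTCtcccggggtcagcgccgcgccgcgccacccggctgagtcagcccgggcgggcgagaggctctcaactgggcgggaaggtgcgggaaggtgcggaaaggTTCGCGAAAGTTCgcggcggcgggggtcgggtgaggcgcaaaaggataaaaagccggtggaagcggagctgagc
HSPA1A: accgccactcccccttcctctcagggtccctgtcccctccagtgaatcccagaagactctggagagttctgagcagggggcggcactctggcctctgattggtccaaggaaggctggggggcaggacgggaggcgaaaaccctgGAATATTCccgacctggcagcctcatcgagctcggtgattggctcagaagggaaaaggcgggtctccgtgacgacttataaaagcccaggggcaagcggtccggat
HSPA8: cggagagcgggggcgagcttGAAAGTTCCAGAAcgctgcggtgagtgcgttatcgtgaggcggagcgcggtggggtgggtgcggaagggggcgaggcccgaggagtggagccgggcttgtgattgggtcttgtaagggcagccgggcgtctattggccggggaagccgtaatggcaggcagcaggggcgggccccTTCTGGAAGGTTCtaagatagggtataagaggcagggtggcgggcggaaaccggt
HSP90AA1: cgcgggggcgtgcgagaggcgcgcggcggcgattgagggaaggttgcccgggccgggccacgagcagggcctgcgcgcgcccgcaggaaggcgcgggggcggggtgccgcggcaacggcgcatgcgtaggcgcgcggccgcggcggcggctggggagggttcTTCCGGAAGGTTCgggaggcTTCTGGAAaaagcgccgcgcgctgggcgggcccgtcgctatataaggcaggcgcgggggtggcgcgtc
DNAJB1: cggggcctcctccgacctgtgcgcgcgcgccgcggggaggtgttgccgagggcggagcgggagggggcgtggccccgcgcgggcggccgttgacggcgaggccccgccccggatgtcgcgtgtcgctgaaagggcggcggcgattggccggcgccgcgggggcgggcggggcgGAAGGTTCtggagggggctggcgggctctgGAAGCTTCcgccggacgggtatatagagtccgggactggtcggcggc
BAG3: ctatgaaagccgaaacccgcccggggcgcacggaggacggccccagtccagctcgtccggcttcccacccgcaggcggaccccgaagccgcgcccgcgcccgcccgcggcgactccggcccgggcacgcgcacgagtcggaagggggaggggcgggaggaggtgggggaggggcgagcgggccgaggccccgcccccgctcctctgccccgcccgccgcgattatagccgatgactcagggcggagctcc

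The 3-unit word of HSPA6 began 74 bases before the start site, that of HSP90AA1 88 bases before its second start, and HSPA8 held a pair, which began 230 and 55 bases before the start. HSPA1A and HSPA1B held the same single 2-unit word 106 and 105 bases before their starts. The second DNAJB1 start had separate 2-unit words 77 and 47 bases upstream, and HSPB1 had 1 word 182 bases upstream. No word was found in these windows of HSPH1, BAG3 or HSPE1. A match is a run of letters and not a bound site. Elements with other letters or outside these windows were not searched for, so a window without a word does not show that a gene lacks the element.

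**Figure D1:**
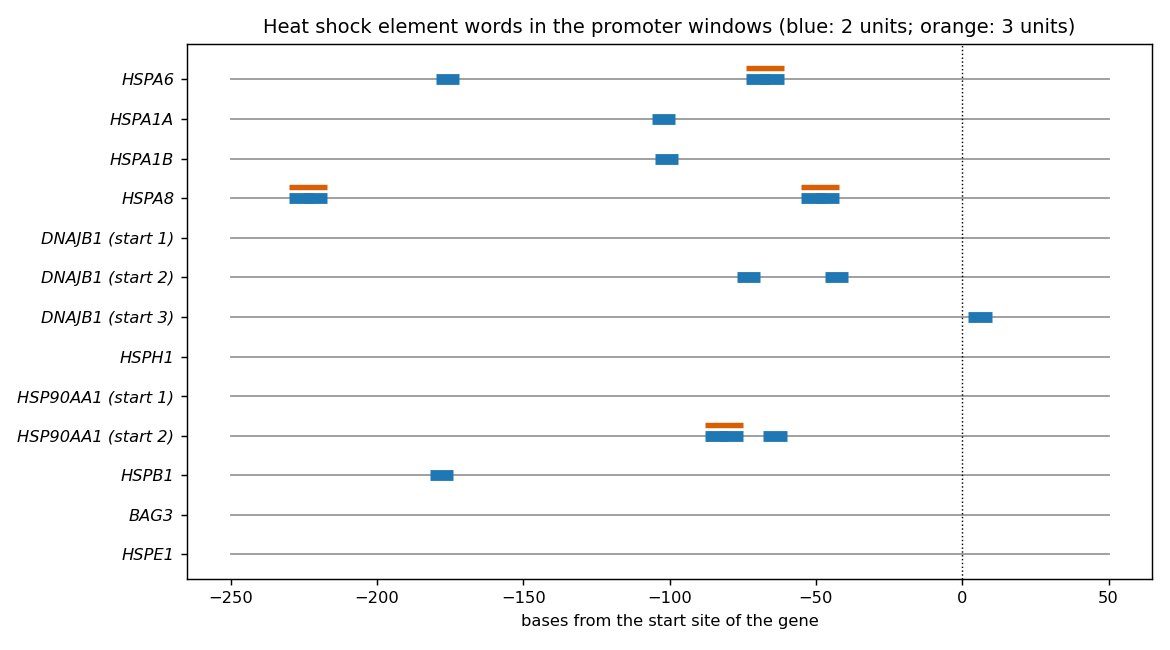
Positions of the searched words in the 13 promoter windows of the members, in bases from the start site. Blue bars are 2-unit words and orange bars are 3-unit words, which lie in the windows of HSPA6, HSPA8 and HSP90AA1.

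HSPA6 was low in untreated and solvent-treated cells and was high on the arrays of both single drugs. Its signal was 113 and 115 at 0 h, and 145 and 93.5 with DMSO. With luteolin it was 588 and 661, and with gefitinib 531 and 332. With both drugs it was 133, inside the range of the drug-free arrays, and 58.1, below that range. On the relative scale its level was -3.63 and -3.35 at 0 h, -3.22 and -3.78 with DMSO, -0.996 and -0.66 with luteolin, -0.29 and -0.92 with gefitinib, and -2.71 and -3.22 with both. On this scale both combination arrays lay above all drug-free arrays, the lower of them level with the higher DMSO array at -3.22. The 4 single-drug arrays lay above all other arrays without overlap, and the luteolin and gefitinib arrays overlapped each other. The 0 h and DMSO arrays also overlapped. Against DMSO the level was 2.67 log2 units (6.38-fold) higher with luteolin, 2.89 (7.42-fold) higher with gefitinib and 0.54 (1.45-fold) higher with both. With another background correction (normexp) the luteolin and gefitinib changes were smaller, at 2.09 and 2.37. DMSO and 0 h differed by -0.01. Within slide 1 the luteolin, gefitinib and combination arrays were 2.22, 2.93 and 0.51 above DMSO, and within slide 2 the luteolin and combination arrays were 3.12 and 0.56 above it.

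If the drugs had acted additively on the log2 scale, the sum of the separate HSPA6 changes, 5.56, would have been seen with both drugs. The measured change was 0.54, so the departure was -5.03. It was -4.63 within the only slide that held all 4 treatments at 24 h. Under the treatments of the file names luteolin gave 0.54, gefitinib 2.67 and both drugs 2.89 against DMSO, and the departure was -0.32. Which naming is right was not tested. HSPA6 had a single probe, which lay at chr1:159762782-159762841 of the build hg18 on the plus strand. HSPA7, a near-identical neighbouring copy, had no probe, and whether its RNA reached the HSPA6 probe was not tested.

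**Figure D2:**
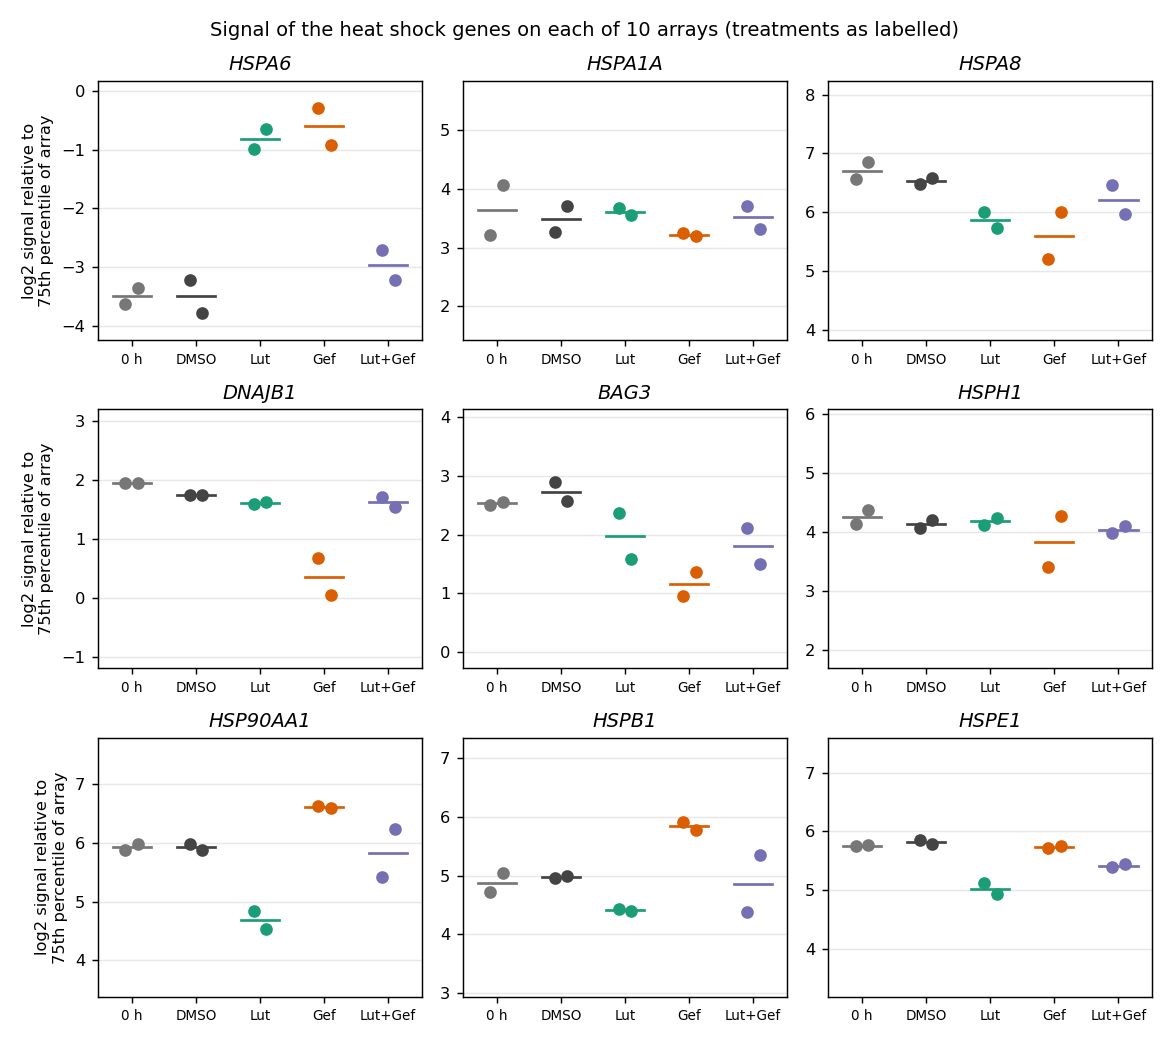
Level of each member on each array, in log2 units above or below the 75th percentile of its array. Points are arrays and bars are group means of 2 arrays, and all panels span the same range of log2 units. HSPA6 is high on the arrays labelled luteolin (Lut) and gefitinib (Gef), whereas DNAJB1 and BAG3 are lowest with gefitinib and HSP90AA1 is lowest with luteolin.

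None of the other members passed the test for up-regulation against DMSO. Of the 8 that could be tested, 0 were up-regulated at least 2-fold against DMSO at an adjusted p under 0.05 (limma, Benjamini-Hochberg over all probes kept) with luteolin, with gefitinib or with both. Among all genes 7.22%, 15.6% and 12.1% were raised, so with 8 members a count of 0 is near that share. At an unadjusted p under 0.05 in limma with no minimum fold, 0, 2 and 0 of them were higher, the 2 being HSP90AA1 and HSPB1. The share of all genes at an unadjusted p was not counted, here or below. With luteolin 1 of 8 members was down-regulated, HSP90AA1, while 13.4% of the 19718 genes tested were called in either direction and 6.17% were lowered. With gefitinib 2 of 8 were down-regulated, BAG3 and DNAJB1, against 29.9% called and 14.3% lowered among all genes. With both drugs 0 of 8 were called, against 19.8% of all genes. At an unadjusted p under 0.05 in limma with no minimum fold, 2 of 8 passed. In either direction the members' share of calls was near or below that of all genes in each comparison. At an adjusted p under 0.05 with no minimum fold, 2 of 8 members passed with luteolin, 5 with gefitinib and 1 with both, against 26%, 55% and 41.3% of all genes. The median change of the 8 members was -0.61 with luteolin, -0.28 with gefitinib and -0.12 with both, beside medians of 0.08, 0.22 and 0.16 over all genes. These 3 comparisons share the DMSO arrays. DMSO against 0 h called 0 of 8 members by limma, against 0.0355% of all genes, and 0 of 8 passed at an unadjusted p under 0.05. Of the 6 epithelial markers checked, 1, 2 and 1 were raised against DMSO with luteolin, gefitinib and both, and of 2 tested blood cell markers (CD14 and CD3E) 0, 2 and 1 were raised. Of 2 tested fibroblast markers (COL1A1 and COL3A1) 0, 1 and 1 were lowered, and the tested endothelial marker PECAM1 was not called. Their part in the results was not tested.

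Calls against the 0 h arrays were similar in number. With luteolin 1 of 8 was called, HSP90AA1, which was lowered, against 16.1% of all genes. With gefitinib 3 of 8 were called, BAG3, DNAJB1 and HSPA8, all lowered, against 29% of all genes. With both drugs 0 of 8 were called, against 19.8%, and 2 passed at an unadjusted p under 0.05 in limma with no minimum fold. These comparisons share the 0 h arrays. Between the drug-treated groups, both drugs against luteolin called 1 of 8 (HSP90AA1, raised, 21% of all genes), both drugs against gefitinib called 1 of 8 (DNAJB1, raised, 27%), and gefitinib against luteolin called 3 of 8 (HSP90AA1 and HSPB1 raised, DNAJB1 lowered, 36.6%). Under the treatments of the file names, both against luteolin called 1 (DNAJB1, lowered, 27% of all genes). Both against gefitinib then called 3 (HSP90AA1 and HSPB1 raised, DNAJB1 lowered, 36.6%), and gefitinib against luteolin called 1 (HSP90AA1, lowered, 21%).

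No change of HSPA1A, the major inducible HSP70 gene, passed the test. Its level was 3.22 and 4.06 at 0 h, 3.26 and 3.70 with DMSO, 3.67 and 3.55 with luteolin, 3.24 and 3.20 with gefitinib, and 3.71 and 3.32 with both. Every drug-treated value lay inside the range of the DMSO arrays or within 0.1 of it. The change against DMSO was 0.13 with luteolin (95% confidence interval -0.53 to 0.79), -0.26 with gefitinib (-0.92 to 0.40) and 0.03 with both (-0.62 to 0.69). The other 2 HSPA1A probes, which also match HSPA1B, changed by 0.10 each with luteolin, and by -0.36 and -0.10 with gefitinib. None of these probes passed the test either.

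HSPA8, the constitutive HSP70, had its lower levels on the drug-treated arrays. Its level was 6.56 and 6.86 at 0 h, 6.48 and 6.58 with DMSO, 6.01 and 5.74 with luteolin, 5.20 and 6.0 with gefitinib, and 6.47 and 5.96 with both. Every drug-treated array lay below every DMSO and 0 h array. The change against DMSO with gefitinib, -0.93 (adjusted p = 0.0254, limma), missed the 2-fold minimum. It was -1.06 with slide as a block, -1.33 without the gefitinib replicate 2 array and -1.79 after quantile normalization, all past the threshold, and -0.53 without the gefitinib replicate 1 array (adjusted p = 0.153, limma). Against 0 h the gefitinib arrays were down-regulated by 1.11 log2 units, or 2.15-fold (adjusted p = 0.0127, limma). The luteolin change of -0.65 and the change with both drugs of -0.31 did not pass. Within slide 1 the gefitinib change was -1.28, and within slide 3 gefitinib against 0 h gave -0.56. A second-variant probe of HSPA8 moved further, by -1.64 with gefitinib (adjusted p = 0.00205, limma), than the other 3 probes, which moved by -0.93, -0.91 and -0.68.

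DNAJB1 separated the gefitinib arrays from all others. Its level was 1.95 and 1.96 at 0 h, 1.75 on both DMSO arrays, 1.60 and 1.63 with luteolin, 0.67 and 0.04 with gefitinib, and 1.71 and 1.55 with both. The arrays of the other groups all lay between 1.55 and 1.96. DNAJB1 fell by 1.39 log2 units (2.62-fold) with gefitinib against DMSO (adjusted p = 0.00155, limma). It was up-regulated 2.42-fold with both drugs against gefitinib alone (adjusted p = 0.00167, limma), a comparison that under the file names gave a 2.39-fold lower level (adjusted p = 0.00141, limma). It did not pass with luteolin (-0.13) or with both drugs (-0.12) against DMSO. Leaving out any single array kept the gefitinib change past the threshold, with values from -1.71 to -1.08. Within slide 1 it was -1.08, and within slide 3 gefitinib against 0 h gave -1.91.

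BAG3, which links HSP70 to small heat shock proteins and to autophagy, was lower on every drug-treated array than on any drug-free array. Its level was 2.51 and 2.55 at 0 h, 2.90 and 2.56 with DMSO, 2.36 and 1.58 with luteolin, 0.96 and 1.36 with gefitinib, and 2.10 and 1.5 with both. With gefitinib it fell by 1.57 log2 units, or 2.97-fold (adjusted p = 0.00404, limma), and its second probe fell by 1.37. Within slide 1 the value was -1.94, and within slide 3 gefitinib against 0 h gave -1.15. With both drugs the change of -0.93 (adjusted p = 0.0414, limma) missed the 2-fold minimum, and without the luteolin plus gefitinib replicate 1 array it was -1.23 and passed. With luteolin it was -0.76 (adjusted p = 0.105, limma), and without the luteolin replicate 1 array it was -1.15 and passed. Without the luteolin replicate 2 array it was -0.37 (adjusted p = 0.515, limma).

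HSPH1, the HSP110 exchange factor, changed little on most arrays. Its level lay between 3.98 and 4.37 on 9 arrays and was 3.40 on the gefitinib replicate 1 array. The changes against DMSO were 0.05, -0.30 and -0.09 with luteolin, gefitinib and both, and none passed the test. The gefitinib value was 0.14 without that array and -0.73 without gefitinib replicate 2. After quantile normalization it was -0.85 (adjusted p = 0.0268, limma), under the 2-fold minimum.

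HSP90AA1 moved in opposite directions with the single drugs. Its level was 5.88 and 5.99 at 0 h, 5.97 and 5.87 with DMSO, 4.84 and 4.53 with luteolin, 6.63 and 6.60 with gefitinib, and 5.42 and 6.24 with both. The luteolin arrays were the lowest and the gefitinib arrays the highest of all 10, and the arrays of both drugs lay on either side of DMSO. With luteolin it fell by 1.24 log2 units, or 2.36-fold (adjusted p = 0.0104, limma). This call was lost without DMSO replicate 1 (-1.19), DMSO replicate 2 (-1.29) or luteolin replicate 2 (-1.09), with adjusted p = 0.0715, 0.0580 and 0.0842. Within slides 1 and 2 the luteolin change was -1.14 and -1.34. The gefitinib change of 0.69 (adjusted p = 0.0499, limma) missed the 2-fold minimum and was -0.15 after quantile normalization. The change with both drugs was -0.10, and -0.71 after quantile normalization (adjusted p = 0.0143, limma). Between the single drugs HSP90AA1 was 3.81-fold higher with gefitinib than with luteolin (adjusted p = 0.00051, limma), whereas under the file names it was 2.21-fold lower (adjusted p = 0.00963, limma). The other 3 probes lay between -1.49 and -0.93 with luteolin and between 0.50 and 0.93 with gefitinib.

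HSPB1 followed the pattern of HSP90AA1 between the single drugs. Its level was 4.71 and 5.04 at 0 h, 4.96 and 4.99 with DMSO, 4.43 and 4.39 with luteolin, 5.90 and 5.77 with gefitinib, and 4.37 and 5.34 with both. It was 2.68-fold higher with gefitinib than with luteolin (adjusted p = 0.00338, limma), whereas under the file names this difference was -0.44 log2 units and did not pass (adjusted p = 0.236, limma). Against DMSO the gefitinib change was 0.86 (adjusted p = 0.0339, limma), under the 2-fold minimum, and with slide as a block it was 1.05 and passed. After quantile normalization it was 0.042 (adjusted p = 0.871, limma). The change with both drugs was -0.12, and -0.59 after quantile normalization (adjusted p = 0.0423, limma). All 3 HSPB1 probes gave gefitinib changes between 0.84 and 0.86. The mitochondrial HSPE1 was lowest with luteolin, at 5.13 and 4.93 against 5.85 and 5.78 with DMSO. Its change of -0.79 had an adjusted p of 0.00679 in limma but stayed under the 2-fold minimum. On the other 6 arrays its level was between 5.39 and 5.77. After quantile normalization HSPE1 changed by -0.91 with gefitinib (adjusted p = 0.00401, limma) and by -0.92 with both (adjusted p = 0.00531), under the 2-fold minimum. Its departure from additivity was then 0.79 (adjusted p = 0.0337, limma), which passed, beside 0.47 under the main scaling, which did not.

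**Figure D3:**
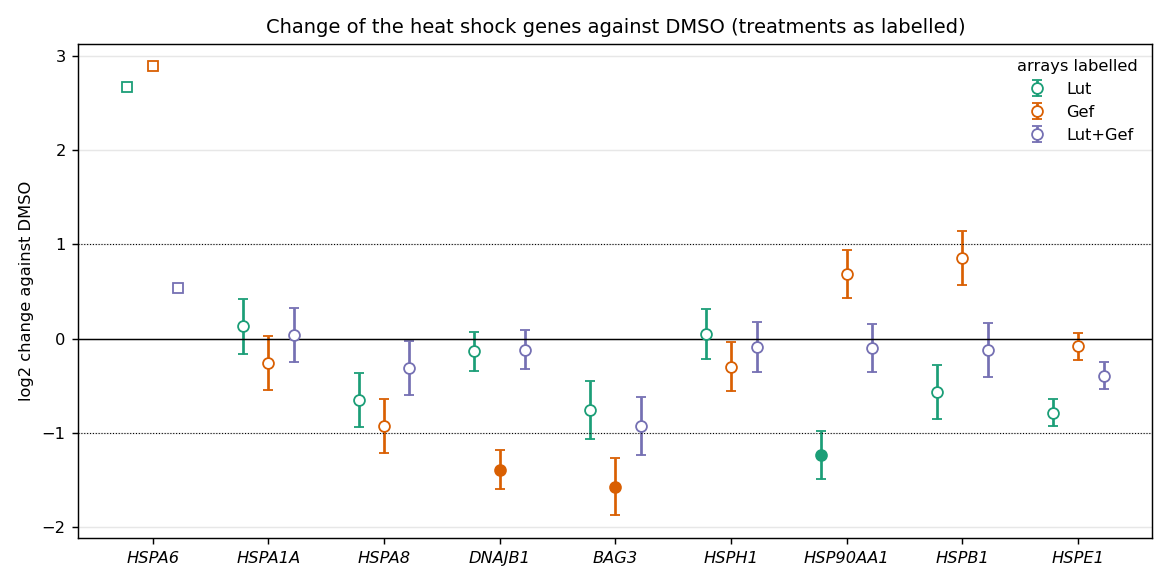
Change against DMSO in log2 units for the arrays labelled luteolin, gefitinib or both. Circles show fitted changes with standard errors (n = 2 arrays a group), filled where the adjusted p was under 0.05 and the change at least 2-fold, and squares show HSPA6, which was not tested. HSPA6 is at 2.67, 2.89 and 0.54, and every filled circle lies below -1.

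The raw signals and the levels differ by the brightness of each array. The mean HSPA8 signal, for example, was 121574 with DMSO and 31078 with gefitinib, whereas its level differed by 1.90-fold. The mean signals of HSP90AA1 (79931 and 62595) and HSPB1 (41506 and 36514) were lower with gefitinib than with DMSO, whereas their levels were higher. Bulk arrays cannot tell fewer molecules in each cell from fewer cells with the transcript.

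The departure from additivity was also computed for the members that the choice of HSPA6 did not involve. At an adjusted p under 0.05, 3 of 8 members departed, namely BAG3, DNAJB1 and HSPA8, against 34.2% of all genes, with 17.9% positive, so their share in either direction was near that of all genes. All 3 were positive, so that the level with both drugs was higher than the sum of the separate changes. DNAJB1 departed by 1.41 (adjusted p = 0.00813, limma), BAG3 by 1.40 (adjusted p = 0.0371) and HSPA8 by 1.27 (adjusted p = 0.0426). HSPA8 also lost its call with slide as a block (1.40, adjusted p = 0.0644, limma), with the replicate block (adjusted p = 0.0539) and with the median over probes (1.05, adjusted p = 0.0532). DNAJB1 stayed past the threshold when any single array was left out. BAG3 lost its call when any of 7 arrays was left out, that is all but luteolin replicate 1, gefitinib replicate 2 and luteolin plus gefitinib replicate 2, and the value ran from 1.01 to 1.80 over all 10 omissions (adjusted p up to 0.121). HSPA8 lost its call without any of 8 arrays, all but gefitinib replicate 2 and luteolin plus gefitinib replicate 2, and its value ran from 0.87 to 1.67 over all 10 (adjusted p up to 0.127). Under the treatments of the file names DNAJB1 departed by -1.14 (adjusted p = 0.0144, limma), the opposite direction, and BAG3 (0.12) and HSPA8 (0.04) did not pass. HSP90AA1 (2.02), HSPB1 (1.54) and HSPE1 (1.10) then did, with adjusted p = 0.00274, 0.0150 and 0.00342 in limma. The share of all genes that departed under the file names was not counted. HSPA1A and HSPH1 departed by 0.17 and 0.16 under the labels and by -0.43 and -0.26 under the file names, and passed under neither. Within the slide that held all 4 treatments, DNAJB1 departed by 1.19, BAG3 by 1.68 and HSPA8 by 1.73.

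**Figure D4:**
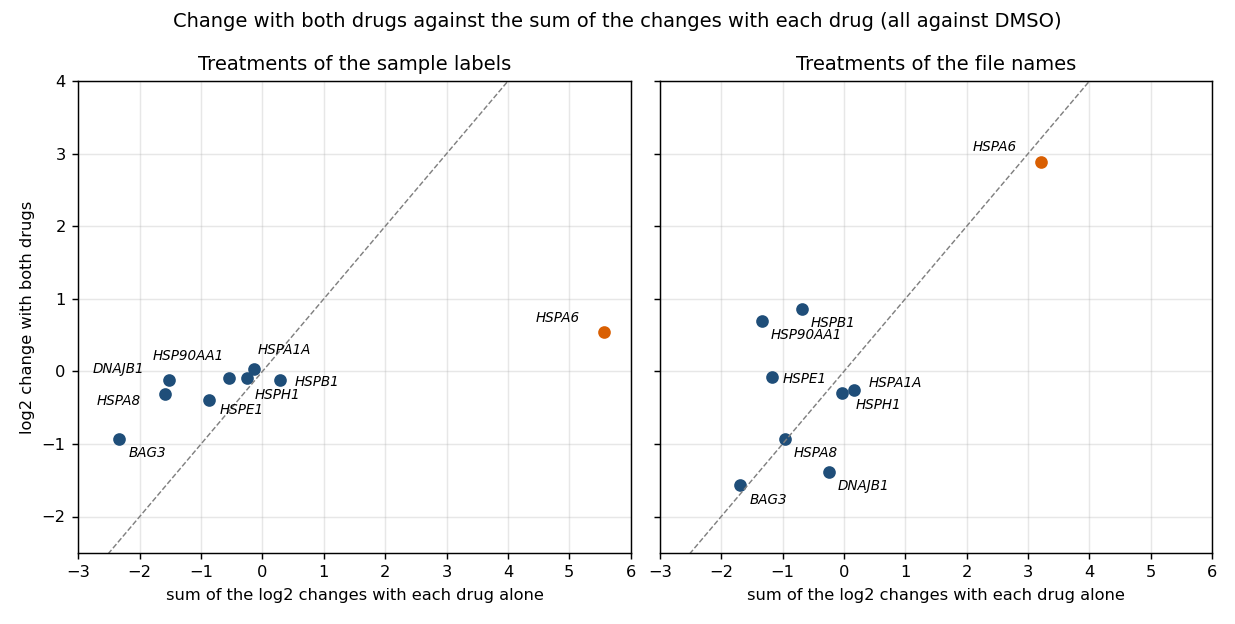
Change with both drugs against the sum of the changes with each drug, in log2 units against DMSO, for the 9 measured members. The dashed line marks equality. HSPA6 (orange) lies 5.03 below the line with the treatments of the labels and 0.32 below it with those of the file names.

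Across the 10 arrays, the levels of most other members had a negative correlation with that of HSPA6, as had those of many other genes. Pearson's r of the levels with HSPA6 was -0.84 for HSPA8, -0.71 for BAG3, -0.67 for DNAJB1, -0.49 for HSPE1, -0.39 for HSPH1, -0.23 for HSPA1A, -0.16 for HSP90AA1 and 0.21 for HSPB1. In the same order these values lay at percentiles 2.02, 6.11, 7.78, 16.6, 21.4, 29.6, 33.1 and 55.3 of the values of the other genes. The points share the array, its scaling and the groups, so these are descriptions. Among 19694 other genes, the pattern most like that of HSPA6 was that of LARP1B (r = 0.99), followed by USP25 (0.98), U80773 (0.98), ZFAND2B (0.96) and BU618279 (0.96). LARP1B, an RNA-binding protein gene, had mean levels of -1.17 with DMSO, -0.28 with luteolin, -0.08 with gefitinib and -0.98 with both. USP25, a deubiquitinase gene, had 1.81, 2.45, 2.58 and 1.81 in the same order. ZFAND2B, a zinc finger gene that acts with the proteasome, had 1.37, 2.23, 2.25 and 1.48. In each the level with both drugs was near that of DMSO, which follows from their choice by likeness to HSPA6 on these arrays. RefSeq promoter windows were found for 3 of these 5 genes, and 0 of the 3 held a heat shock element word.

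Among the heat shock factors, HSF1, the main activator of the response, passed the test for up-regulation with gefitinib on the relative scale. Its level was 4.61 and 4.59 with DMSO, 5.07 and 5.28 with luteolin, 5.69 and 5.61 with gefitinib, and 5.05 and 5.09 with both. It rose by 1.05 log2 units, or 2.07-fold, with gefitinib (adjusted p = 0.0014, limma). The changes of 0.58 with luteolin and 0.47 with both stayed under the 2-fold minimum. The percentile subtracted was 651 and 628 on the gefitinib arrays, against 1350 and 1283 with DMSO. Other scalings were run for the members only. Whether the HSF1 rise and the calls of other genes outside the members hold under another scaling was not tested. HSF4 rose with luteolin (1.47, adjusted p = 0.0029, limma) and with gefitinib (1.10, adjusted p = 0.00462) and was at -0.19 with both. HSBP1, which binds the HSF1 trimer, rose by 1.06 with gefitinib. HSF2BP fell by 1.29 with both drugs, where 1 of its 2 arrays was not well above background. Of the 5 genes tested, 1, 3 and 0 were raised and 0, 0 and 1 lowered with luteolin, gefitinib and both, while 7.22%, 15.6% and 12.1% of all genes were raised and 6.17%, 14.3% and 7.69% lowered.

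Of the other HSP70 and HSP110 genes, HSPA5 and HYOU1 were raised with luteolin. HSPA5 (BiP) is the HSP70 of the endoplasmic reticulum. Its level was 1.37 and 1.39 with DMSO, 2.84 and 3.19 with luteolin, 2.34 and 1.20 with gefitinib, and 2.65 and 2.90 with both. It rose 3.1-fold with luteolin (adjusted p = 0.00915, limma) and 2.63-fold with both (adjusted p = 0.0124), and its gefitinib change of 0.39 did not pass. HYOU1, an HSP110 of the same compartment, rose by 1.32. HSPA4L, a cytosolic HSP110, fell by 1.16 with luteolin and by 1.53 with both. HSPA1L was down-regulated at least 1.69-fold with gefitinib, where its probe was not well above background on either array (adjusted p = 0.0296, limma). Of 10 other HSP70 and HSP110 genes tested, 2, 0 and 2 were raised and 2, 1 and 1 lowered with luteolin, gefitinib and both, against the same 7.22%, 15.6% and 12.1% raised and 6.17%, 14.3% and 7.69% lowered among all genes.

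DNAJB9 (ERdj4), a J-domain partner of BiP, rose with luteolin. Its level was 0.62 and 0.84 with DMSO, 2.96 and 3.86 with luteolin, 1.11 and -0.17 with gefitinib, and 2.34 and 2.68 with both. The rise was 6.42-fold with luteolin (adjusted p = 0.00358, limma) and 3.44-fold with both (adjusted p = 0.0134). The cytosolic DNAJB4 rose 3.04-fold with luteolin and 3.31-fold with both. DNAJB5 fell by 1.30 with gefitinib and by 1.39 with both, and DNAJC7 fell by 1.61 with both. Of 13 J-domain genes tested, 5, 0 and 2 were raised and 0, 1 and 2 lowered with luteolin, gefitinib and both, where all genes gave 7.22%, 15.6% and 12.1% raised and 6.17%, 14.3% and 7.69% lowered. The medians of this list were -0.23, 0.0039 and 0.0021.

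In the HSP90 group, the constitutive HSP90AB1 changed by -0.72, 0.48 and 0.23 with luteolin, gefitinib and both, under the 2-fold minimum each time. HSP90B1, the HSP90 of the endoplasmic reticulum, rose 2.32-fold with gefitinib (adjusted p = 0.00135, limma) and 2.01-fold with both. FKBP5, an HSP90-binding immunophilin, fell by 1.77 with luteolin (adjusted p = 0.00358, limma) and by 1.72 with both, and was at 0.20 with gefitinib. CDC37, the kinase-specific cochaperone, rose by 1.22 with gefitinib, and CHORDC1 fell by 1.30 with both drugs. Of 15 genes tested, 0, 2 and 1 were raised, beside 7.22%, 15.6% and 12.1% of all genes, and 1, 1 and 3 were lowered, beside 6.17%, 14.3% and 7.69%. Of 7 exchange factors and ubiquitin-linked cochaperones tested, the only 1 called was BAG1, which rose 2.78-fold with gefitinib (adjusted p = 0.000472, limma). This was near the 15.6% of all genes raised with gefitinib.

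Small heat shock proteins were raised in 1 of 5 tested genes with luteolin, 3 with gefitinib and 2 with both, against 7.22%, 15.6% and 12.1% of all genes, and none was lowered. CRYAB, the αB-crystallin gene, had levels of -3.04 and -2.62 with DMSO, -0.86 and -0.61 with gefitinib, and -2.05 and -1.57 at 0 h, so that its DMSO arrays were the lowest of all. It rose 4.27-fold with gefitinib (adjusted p = 0.00345, limma). HSPB2, the gene called with luteolin, was not well above background on either the DMSO or the luteolin arrays, so that call has no fold. It was at least 2.12-fold higher with gefitinib, where it was measured on 1 array, and at least 2.74-fold higher with both. HSPB9 rose by 1.79 with gefitinib and by 1.08 with both, and 1 of its 2 DMSO arrays was well above background. Among 9 chaperonins, CCT2 and CCT5, subunits of the cytosolic ring, fell with luteolin by 1.06 and 1.03, and 0 were called with gefitinib or with both. Among all genes 6.17% were lowered with luteolin, and 29.9% and 19.8% were called in either direction with gefitinib and with both. HSPD1 (HSP60), the partner of HSPE1, was at -0.88 with luteolin (adjusted p = 0.0145, limma), under the 2-fold minimum.

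Other genes known to rise with heat shock were raised more often than lowered. Of 14 tested, 4 were raised with luteolin, 6 with gefitinib and 5 with both, and 0, 1 and 1 were lowered. Among all genes 7.22%, 15.6% and 12.1% were raised and 6.17%, 14.3% and 7.69% lowered. ATF3, a stress-induced transcription factor, had levels of -0.39 and -0.29 with DMSO, 0.95 and 2.14 with luteolin, 3.34 and 2.28 with gefitinib, and 2.39 and 2.14 with both. It rose 3.69-fold, 8.84-fold and 6.08-fold. PPP1R15A (GADD34), which restores translation after stress, rose by 1.11, 2.33 and 1.26. SQSTM1, the p62 autophagy receptor, rose by 1.72, 1.31 and 1.15 with luteolin, gefitinib and both (adjusted p at most 0.00337, limma). RGS2 fell by 2.08 with gefitinib.

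**Figure D5:**
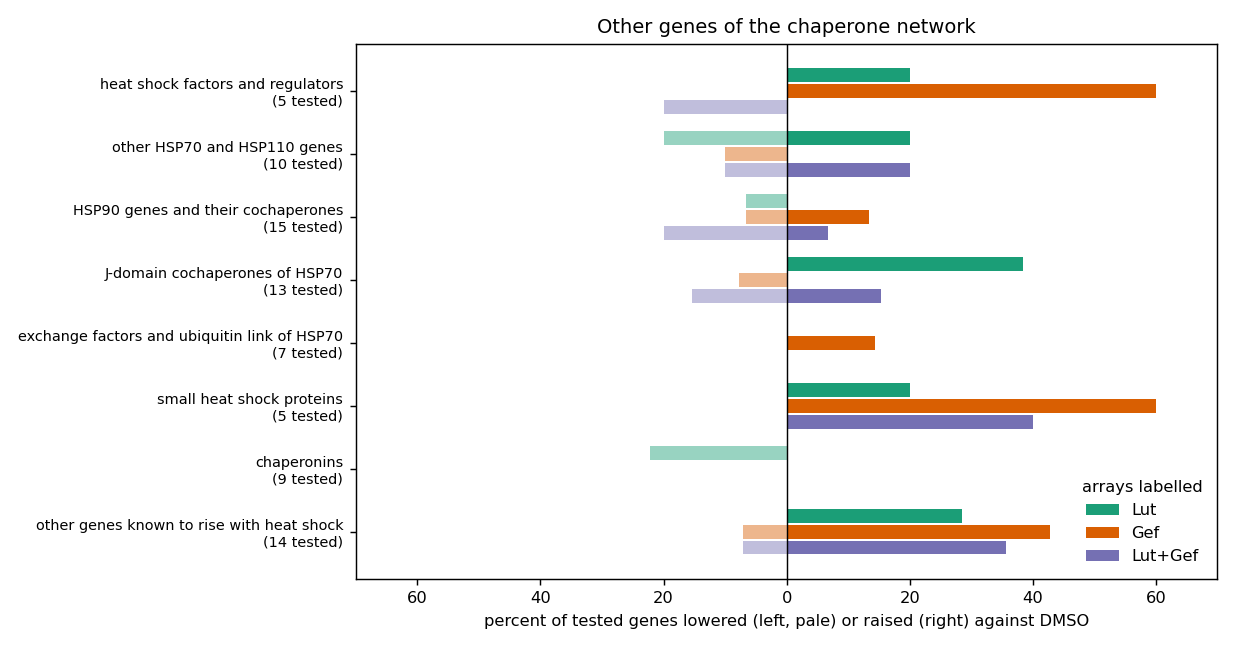
Share of tested genes of each list that passed an adjusted p under 0.05 and a 2-fold change against DMSO, raised to the right and lowered to the left in pale colour, by labelled treatment. Small heat shock proteins and heat shock factors have the highest raised shares with gefitinib (3 of 5 each), and J-domain genes are raised with luteolin (5 of 13).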

How the data were processed

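Gene expression was measured on 10 single-colour Agilent 4x44K arrays, 2 for each of 5 groups. Per the file headers, the authors extracted spot values with Feature Extraction 10.7.3.1. The deposited intensity is the processed signal, background-corrected and not scaled between arrays. The deposited value table held the same signals for all 45015 spots of every array (relative tolerance 1e-04). Here each intensity was converted to log2 and the array's 75th percentile was subtracted (R 4.3.3, limma 3.58.1). Spots of 1 probe were averaged, outlier spots were dropped, and a probe was kept where both arrays of some group had it well above background (28776 probes, judged on at least 50% of its spots). A gene was represented by its probe with the highest mean, which gave 19718 genes, and other probes are named where described.

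All 5 groups were fitted together with lmFit and eBayes (5 residual and 3.36 prior degrees of freedom), and p-values were Benjamini-Hochberg adjusted over all probes kept. Called means a 2-fold or larger change with its adjusted p below 0.05, or the adjusted p alone for departures from additivity. "At least" folds set the dimmer group to the lowest signal well above background on each array. The number of arrays limits the precision. Probe coordinates are hg18, as the files give them. The members, the pathway lists and the rule for named genes (all members, up to 4 called genes with the largest change for each list, HSF1, HSPA7, HSP90AB1, HSPD1 and HSPA5, and the 5 genes most like HSPA6) were chosen with earlier results of these data known. Alternatives were normexp background correction, quantile or median scaling, no filter, a replicate or slide block, fewer groups, the file-name treatments, no minimum fold, the median over probes, the methods' t-test, and each array left out. The analysis was tested on simulated data. The slide was read from the file headers, and scans grouped the arrays in the same way.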

Additional observations from a re-analysis of the deposited data

Results flagged for a closer look

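The effect of 1 drug differed with the presence of the other for 3 of 8 tested members, by the interaction term of the limma fit. This share was near the 34.2% of all genes. The departure from additivity was 1.41 log2 units for DNAJB1, 1.40 for BAG3 and 1.27 for HSPA8. BAG3 and HSPA8 lost their calls without the filter and with only the groups compared. When the treatments were read from the file names, the DNAJB1 value was -1.14 and the others were 0.12 and 0.04. HSP90AA1 (2.02), HSPB1 (1.54) and HSPE1 (1.10) then passed as well as DNAJB1. The share of all genes that passed under that naming was not counted.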

How the results depend on the processing

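The counts of called members changed as follows. Under the file names they were 0 (luteolin against DMSO), 1 (gefitinib) and 2 (both), beside 19.8%, 13.4% and 29.9% of all genes. Against 0 h they were 0, 1 and 3, beside 19.8%, 16.1% and 29%. They were 3 for both against gefitinib (36.6%) and 1 for gefitinib against luteolin (21%). With no minimum fold they were 2, 5 and 1 against DMSO, 2 for luteolin against 0 h, 3 for both against gefitinib and 5 for gefitinib against luteolin. With slide as a block 4 were called for gefitinib against DMSO and 2 for both against gefitinib, which was also 2 with normexp, with median scaling and with the median over probes. Quantile normalization gave 1 for both against DMSO, 1 for both against 0 h and 0 for both against luteolin. Departures from additivity fell to 1 without the filter and with only the groups compared. The methods' t-test, unadjusted, called 1 for DMSO against 0 h and 2 for luteolin against 0 h, and after Benjamini-Hochberg 0 for luteolin and 0 for gefitinib against 0 h. Leaving out 1 array gave 0 to 2 (luteolin), 2 to 3 (gefitinib) and 0 to 1 (both) against DMSO, 0 for DMSO, 0 to 1, 2 to 3 and 0 to 1 against 0 h, 0 to 1 for both against luteolin, 1 to 3 for both against gefitinib, 2 to 4 for gefitinib against luteolin and 1 to 4 departures. Causes were not tested.

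These values reversed in sign. With both drugs HSPA1A was -0.0475 with normexp, -0.19 with quantile and -0.0027 with median scaling, and HSP90AA1 was 0.0481 with the median over probes. HSP90AA1 with gefitinib was -0.15 with quantile normalization, HSPH1 with luteolin -0.0077 with median scaling, and the HSPA1A departure -0.0757 with slide as a block. Under the file names luteolin gave HSPH1 -0.0893, gefitinib gave HSPA1A 0.13, HSPH1 0.0497, HSP90AA1 -1.24 and HSPB1 -0.57, and both gave HSPA1A -0.26, HSP90AA1 0.69 and HSPB1 0.86. Departures were then -0.43 (HSPA1A), -1.14 (DNAJB1), -0.26 (HSPH1) and 1.54 (HSPB1). Leaving out 1 array moved HSPA1A from -0.0927 to 0.35 with luteolin and from -0.19 to 0.26 with both, HSPH1 from -0.0171 to 0.12 with luteolin and from -0.73 to 0.14 with gefitinib, HSP90AA1 from -0.51 to 0.32 and HSPB1 from -0.60 to 0.36 with both, and departures from -0.0536 to 0.39 (HSPA1A), -0.28 to 0.59 (HSPH1) and -0.90 to 0.0712 (HSPB1). Over all members except HSPA6, 597 of these alternative values kept direction and side of the threshold, 30 lost and 14 gained the call, and 31 reversed. The deposited value table held the same signals, so its part of the 597 was fixed in advance. No filter, the replicate block, fewer groups and a 0 h array left out could move only the adjusted p, not the change. The HSPA6 departure was -3.81 with normexp and -5.34 to -4.71 with 1 array left out.

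Replicate numbers were not shown to pair arrays, since deviations of same-numbered arrays correlated from -0.10 to 0.29. With the replicate block 2 departures from additivity were called, HSPA8 being lost at 1.27 (adjusted p = 0.0539, limma), and no other call of a member against DMSO changed. The design of 2 arrays a group limits every value.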
